A study of Mus musculus with 169 samples.

Results

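The 9 genes described here are Ifit1, Ifit2, Ifit3, Isg15, Irf7, Stat2, Bst2, Oasl2 and Usp18, a set of genes induced by type I interferon. They were chosen by name, and every microarray probe whose accession maps to one of them was taken. This gave 10 of 55681 probes, and 9 of the 20145 gene symbols that could be named on the array. All 10 probes passed the filter on dim probes, which kept a probe that was well above background on at least 3 arrays.

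The study examined mice without progranulin, a secreted and lysosomal protein encoded by Grn, and its title ties that loss to synaptic pruning by microglia and to complement. Microglia were sorted from Grn-/- (KO) and Grn+/+ (WT) mice on a C57B/6J background, by Percoll gradient and then by flow cytometry for CD11b, CD45 and Ly6G. One-colour Agilent arrays were hybridised with RNA of 4 groups, namely KO at 4 months (3 arrays), WT at 4 months (4 arrays), KO at 16 months (4 arrays) and WT at 16 months (4 arrays). The knockout is in the whole animal, so every cell of the KO mice lacks the gene, and the labels do not say whether arrays of a group came from separate animals or from pools, so p-values measure the spread between these samples.

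Type I interferons bind the receptor IFNAR1/IFNAR2, whose kinases JAK1 and TYK2 phosphorylate STAT proteins, STAT2 among them. The STATs join IRF9 and bind the interferon-stimulated response element (ISRE) in the promoters of interferon-stimulated genes. In the brain, microglia make and respond to these cytokines, and interferon-stimulated genes in microglia are known from viral infection, ageing and neurodegeneration.

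The promoter stretches that hold the ISRE core are shown for the members that have one, because this element is the DNA contact between the pathway and its targets. RefSeq promoter windows on build GRCm38.p6, each running from 250 bases before to 50 bases after an annotated start site, were matched for 8 of the 9 genes, in 9 windows. The motif GAAANNGAAA was searched on both strands, and capitals mark its matches.
Isg15, chr4:156200835-156200936, minus strand: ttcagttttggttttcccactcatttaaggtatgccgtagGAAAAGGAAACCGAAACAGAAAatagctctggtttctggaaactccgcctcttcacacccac
Bst2, chr8:71537547-71537642, minus strand: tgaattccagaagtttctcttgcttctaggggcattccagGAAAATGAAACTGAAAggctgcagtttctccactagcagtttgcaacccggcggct
Ifit1, chr19:34640745-34640853, plus strand: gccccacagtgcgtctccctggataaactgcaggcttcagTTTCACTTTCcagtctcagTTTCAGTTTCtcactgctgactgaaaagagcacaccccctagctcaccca
Ifit3, chr19:34583333-34583456, plus strand: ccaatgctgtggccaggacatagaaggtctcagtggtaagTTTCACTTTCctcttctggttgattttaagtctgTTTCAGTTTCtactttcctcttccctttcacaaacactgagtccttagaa
Stat2, chr10:128270248-128270325, plus strand: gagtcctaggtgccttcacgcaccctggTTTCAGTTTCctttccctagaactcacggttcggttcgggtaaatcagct

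Isg15, on chromosome 4, had 3 matches chained over one another, which begin at positions -78, -72 and -66 relative to its start site. Bst2, on chromosome 8, had 2 overlapping matches, at -130 and -124. Ifit1 and Ifit3, both on chromosome 19, had 2 separate matches each, and Stat2, on chromosome 10, had 1. The windows of Oasl2 (chromosome 5), Irf7 (chromosome 7) and Ifit2 (chromosome 19) held no match. The motif was present in 3.44% of all 32851 promoter windows, against 5 of the 9 windows of these genes. The gamma-activated sequence, searched as TTCNNNGAA on both strands, lay in the Bst2 window, where it overlapped an ISRE match, and in 1 of the 2 Ifit2 windows, against 8.3% of all windows. Usp18, on chromosome 6, had no entry in the promoter table.

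**Figure D1:**
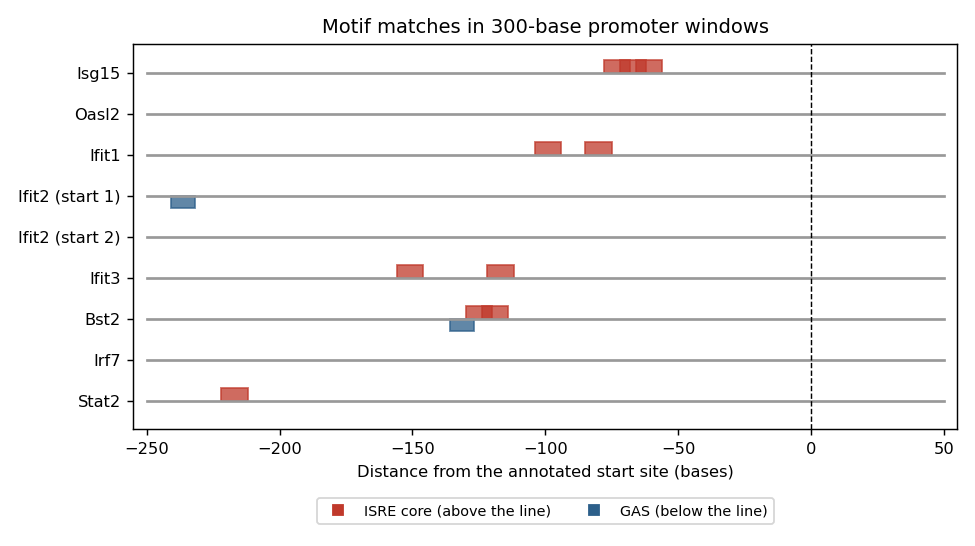
Positions of motif matches in the promoter windows of 8 interferon-induced genes, with distance from the annotated start site in bases on the horizontal axis and 1 line per window. Boxes above a line are matches of the ISRE core and boxes below it are matches of the gamma-activated sequence. Of the ISRE matches, those of Isg15 lie nearest to the start site, from -78 on, and that of Stat2 lies farthest from it, at -222.

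Levels are given as log2 of the processed signal over the 75th percentile of the same array, so that 0 is the level of the 75th percentile, and values under -4.94 were set to -4.94, the floor. The floor is the dimmest signal well above background on KO replicate 2 at 16 months, the array where that limit was highest, and on the other arrays the limit lay between -6.43 and -5.55, so a value at the floor there could still be above background. Grn itself was read first. It averaged -2.77 ± 0.66 in KO at 4 months (SD, n = 3) and 6.25 ± 0.086 in WT (SD, n = 4), and at 16 months it was not well above background on any KO array, at least 1340-fold lower than in WT (limma's moderated test, adjusted p = 3.75e-07). In WT at 16 months, arrays 1 and 2 differed from each other by no more than repeated spots on one array do, and so did arrays 3 and 4, so each pair was averaged and counted as 1 replicate, which leaves n = 2 in that group and 13 replicates in all. The share of probes above background was 54.2% to 62.7% on the KO arrays at 16 months and 64.6% to 69.8% on the WT arrays, and KO replicate 2 stood apart from the other KO arrays of that age. The mean level of 9 microglia markers ran at 3.22 to 5.29 in KO and 6.58 to 7.31 in WT at 16 months, with 8 of 9 called lower and all 9 above background on at least 1 array of each group. The mean level of 6 choroid plexus epithelium markers ran at 5.86 to 6.2 in KO and 2.86 to 4.57 in WT at 16 months, with 4 of 6 called higher. The mean level of 5 neutrophil markers ran at -4.22 to 2.36 in KO and 1.12 to 2.38 in WT at that age, with a median difference of -4.46, 1 called higher and 0 called lower. At 4 months the microglia markers ran at 7.04 to 7.69 in KO and 7.12 to 7.49 in WT, and the choroid plexus markers at 1.34 to 2.39 in KO and -2.46 to 0.18 in WT, with a median difference of 3.02 at 4 months and 2.55 at 16 months for the choroid plexus list. None of either list was called at 4 months. The part of these differences in the results below was not tested. Because the arrays measure bulk sorted cells, fewer cells of a type and less RNA per cell cannot be told apart, and because each age filled its own slide and each genotype its own row of a slide, neither age and slide nor genotype and row can be told apart.

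At 16 months the interferon-induced genes did not move as one group. Bst2 rose in KO microglia, Isg15, Usp18 and Oasl2 fell, and the other 5 did not pass the test (limma's moderated test, Benjamini-Hochberg adjusted p under 0.05 over all features). Over the array, 34.3% of features were called at this age, 19.3% higher and 15% lower, so a call was common among all features. The median difference of the 9 genes was -1.66 on the log2 scale, and that of all 31918 features was 0.12. The replicates of KO and WT did not overlap for 5 of the 9 genes, 4 lower and 1 higher in KO, where 42.2% of all features were so separated, 17.9% lower and 24.2% higher. At 4 months 0 of the 9 genes were called by limma's test, and 0 had an unadjusted p under 0.05. At that age 0.0251% of features were called (0.0157% higher and 0.0094% lower), that is 8 of 31916, with 1915 at an unadjusted p under 0.05. The replicates did not separate for any of the 9 genes at 4 months, where they did for 11.6% of all features, 6.64% lower and 4.99% higher, and the median difference of the 9 genes was -0.23. Without KO replicate 2, 3 members were again called lower at 16 months and 1 higher, with Ifit3 (-1.96, adjusted p = 0.0352) in the place of Usp18.

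**Figure D2:**
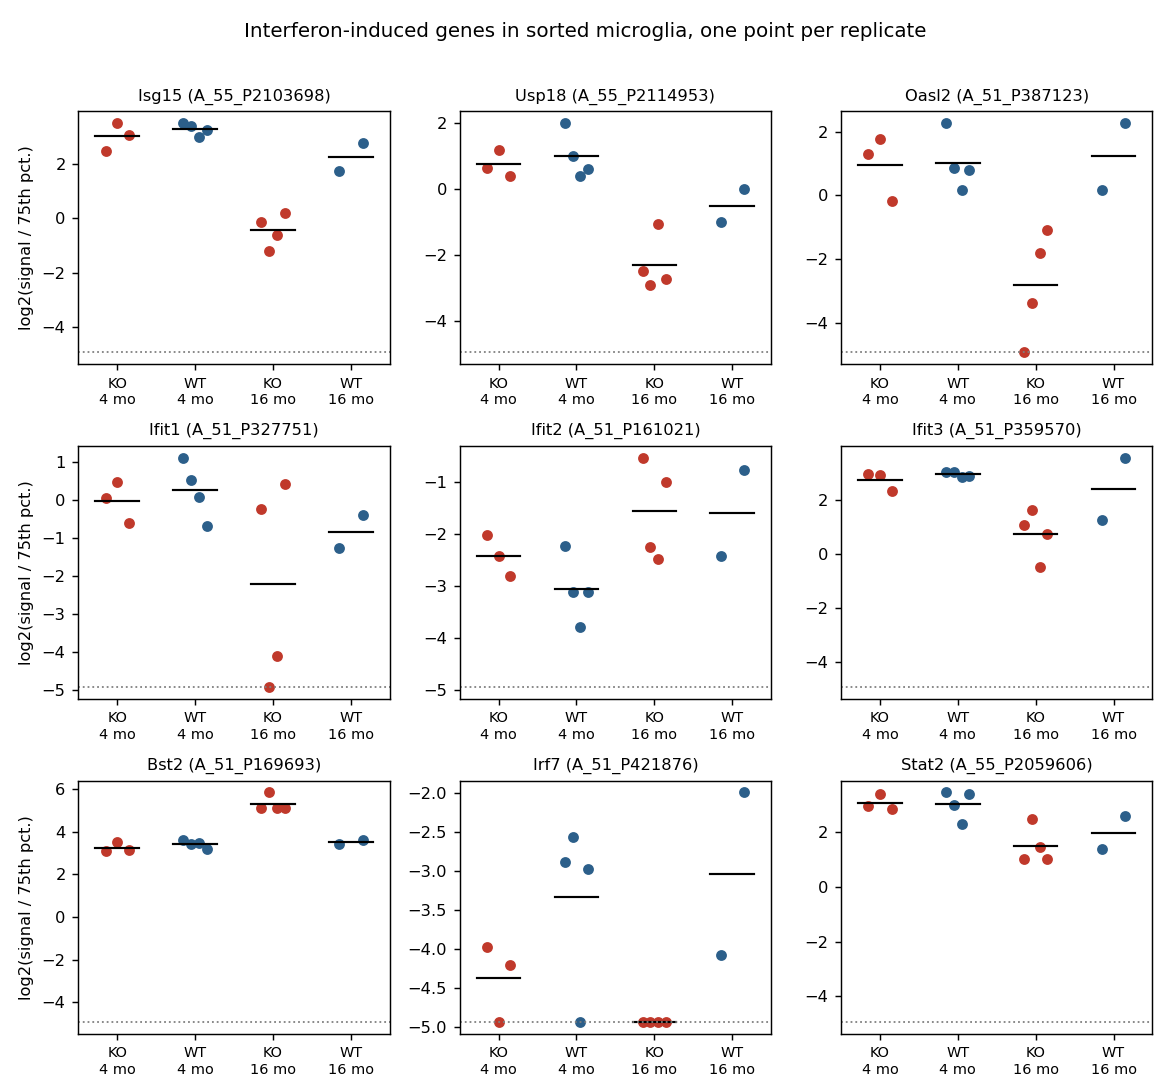
Level of each of the 9 interferon-induced genes in KO and WT microglia at 4 and 16 months, as log2 of signal over the array's 75th percentile, with 1 panel per probe, 1 point per replicate, a bar at the group mean and a dotted line at the floor. At 16 months the Bst2 points of KO, at 5.1 and above, sit over both WT points, and the Isg15, Usp18 and Oasl2 points of KO sit under theirs. The Irf7 points of KO at that age, all at the floor, also sit under both WT points.

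Isg15 encodes a ubiquitin-like protein that is conjugated to other proteins after interferon exposure. At 16 months its levels were -0.15, -1.22, -0.63 and 0.19 in KO, against 1.73 and 2.76 in WT. All 4 KO replicates lay below both WT replicates, and the second WT value rests on 1 of its 2 arrays because the spot on the other was an outlier. The difference was -2.70 on the log2 scale (SE 0.42, adjusted p = 0.0011), and without KO replicate 2 it was -2.44 (adjusted p = 0.00146). At 4 months Isg15 had levels of 2.48, 3.49 and 3.04 in KO, against 3.51, 3.37, 2.99 and 3.23 in WT. These ranges overlapped, and the difference was -0.27 (95% interval -1.1 to 0.56, adjusted p = 1). The change with genotype differed between the ages by -2.42 (SE 0.57, adjusted p = 0.0203). That difference between ages did not pass with a block built from the replicate numbers (limma, adjusted p = 0.0683). Without WT arrays 3 and 4 at 16 months, which leaves 1 WT replicate there, it shrank to -1.91, and no call is read from that fit.

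The other Isg15 probe, A_66_P128537, moved the same way. It read -1.82, -3.86, -2.96 and -1.74 in KO and 1.42 and 0.17 in WT at 16 months. The groups did not overlap, and the difference was -3.39 (SE 0.57, adjusted p = 0.00175 in a fit of all 45604 probes kept). At 4 months it read -0.41, 0.21 and 0.16 in KO and 0.73, 0.46, 0.19 and 0.42 in WT, a difference of -0.46 (adjusted p = 1).

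Usp18 encodes the protease that removes ISG15 from proteins and also dampens signalling at the interferon receptor. Its levels at 16 months were -2.47, -2.91, -1.04 and -2.73 in KO, against -1 and 0 in WT. KO replicate 3, at -1.04, lay only just under the lower WT replicate. The difference was -1.79 (SE 0.58, adjusted p = 0.0359). The call was made in 13 of 24 alternatives. Without KO replicate 2 the difference was -1.58 (adjusted p = 0.0689), and without WT arrays 3 and 4 it was -1.29 (adjusted p = 0.243). At 4 months the levels were 0.65, 1.18 and 0.41 in KO and 2.01, 1.01, 0.39 and 0.60 in WT, which overlapped, with a difference of -0.26 (95% interval -1.39 to 0.88, adjusted p = 1). Between the ages this difference changed by -1.54, not called (adjusted p = 0.213).

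Oasl2 encodes a protein related to the oligoadenylate synthetases, antiviral enzymes that respond to double-stranded RNA. At 16 months it was at the floor in KO replicate 1 and had levels of -3.39, -1.82 and -1.10 in the other KO replicates, against 0.18 and 2.28 in WT. No KO replicate reached the lower WT replicate, and both groups were widely spread. The difference was -4.04 (SE 1.1, adjusted p = 0.0139), and without KO replicate 2 it was -3.85 (adjusted p = 0.0276). It was not called with the arrays of that age alone (adjusted p = 0.113) or without WT arrays 3 and 4 (-2.99, adjusted p = 0.135). At 4 months the levels were 1.29, 1.76 and -0.18 in KO and 2.26, 0.86, 0.18 and 0.80 in WT, which overlapped, and the difference was -0.07 (95% interval -2.13 to 1.99). Between the ages it changed by -3.97, not called (adjusted p = 0.0883).

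The IFIT genes encode tetratricopeptide repeat proteins that bind viral RNA or hinder its translation, and in the mouse they sit together on chromosome 19. In the order of the annotation the cluster runs Ifit2, Ifit3, Ifit1bl1, Ifit3b, Ifit1bl2 and Ifit1. None of the 3 members was called at either age, where 34.3% of all features were called at 16 months and 0.0251% at 4 months. Their differences at 16 months ran at -1.66 to 0.04.

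Ifit1 had levels of -0.24 and 0.44 in KO replicates 1 and 4 at 16 months, of -4.12 in replicate 3 and at the floor in replicate 2, against -1.27 and -0.39 in WT. The KO replicates thus fell on both sides of the WT replicates. The difference was -1.39 with an SE of 1.3 (adjusted p = 0.466). At 4 months Ifit1 read 0.05, 0.49 and -0.60 in KO and 1.13, 0.53, 0.08 and -0.68 in WT, which overlapped, with a difference of -0.28 (95% interval -2.89 to 2.32).

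Ifit2 had levels of -0.54, -2.25, -2.48 and -1 in KO and -2.43 and -0.78 in WT at 16 months. The groups covered the same range, and the difference was 0.04 (95% interval -1.39 to 1.46, adjusted p = 1). At 4 months it read -2.03, -2.43 and -2.81 in KO and -2.23, -3.12, -3.78 and -3.12 in WT. These values overlapped as well, with a difference of 0.64 (95% interval -0.62 to 1.89).

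Ifit3 had levels of 1.07, 1.63, -0.47 and 0.72 in KO and 1.24 and 3.56 in WT at 16 months. One KO replicate exceeded the lower WT replicate. The difference was -1.66 (SE 0.63) and missed the threshold (adjusted p = 0.0641). It passed in 6 of 24 alternatives, over which it ran at -2.82 to -0.5. Each WT replicate weighed heavily on it. Without WT arrays 1 and 2 it was -2.82, whereas without WT arrays 3 and 4 the WT level is 1.24, against a mean of 0.73 in KO. At 4 months Ifit3 read 2.94, 2.90 and 2.31 in KO and 3.03, 3.01, 2.84 and 2.89 in WT, a difference of -0.23 (95% interval -1.46 to 1). Ifit3b is a near copy of Ifit3, so the probe may read both. The 2 probes that map to Ifit3b differed by -1.37 and -1.79 at 16 months, and neither was called (adjusted p = 0.356 and 0.082 in the fit of all probes).

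Bst2 encodes tetherin, a membrane protein that holds budding virus at the cell surface, and it was the one member that rose. Its levels at 16 months were 5.13, 5.85, 5.14 and 5.10 in KO, against 3.41 and 3.61 in WT. All 4 KO replicates were above both WT replicates by more than the range of either group. The difference was 1.80 (SE 0.24, adjusted p = 0.000535). Without KO replicate 2, the highest, it was 1.61 (adjusted p = 0.00032), and with quantile normalization it was 1.15 (adjusted p = 0.000237). At 4 months Bst2 had levels of 3.1, 3.52 and 3.17 in KO, against 3.61, 3.43, 3.48 and 3.18 in WT. These overlapped, and the difference was -0.16 (95% interval -0.63 to 0.32, adjusted p = 1). The change with genotype differed between the ages by 1.95 (SE 0.33, adjusted p = 0.00553). Bst2 is also a marker of plasmacytoid dendritic cells. The other 3 markers fixed for those cells are Ccr9, Klk1 and Ly6d. At 16 months their mean level was low, at -4.46 to -3.51 in KO and -4.54 to -4.2 in WT. Each was above background on at least 1 array of both groups. Their median difference was 0.71, and none was called. Whether such cells had a part in the rise of Bst2 was not tested.

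Irf7 encodes the transcription factor that amplifies interferon production. At 16 months it was at the floor on all 4 KO arrays, under both WT levels of -4.08 and -1.99. No KO array of that age read it well above background. Against the dimmest signal that each KO array could measure it was at least 5.75-fold lower in KO, and at least 2.79-fold lower without WT arrays 3 and 4. The fit, with values set to the common floor, gave a difference of -1.91 (SE 0.68, adjusted p = 0.0507) and made no call. A call was made in 5 of 23 alternatives, over which the difference ran at -3.04 to -0.56 (adjusted p = 0.0102 to 0.451). At 4 months Irf7 had levels of -3.97 and -4.20 in KO replicates 1 and 3 and was at the floor in replicate 2, against -2.88, -2.56 and -2.97 in WT replicates 1, 2 and 4 and the floor in replicate 3, where the spot was still well above background. The groups overlapped, and the difference was -1.03 (95% interval -2.35 to 0.29, adjusted p = 0.949).

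Stat2 encodes the STAT protein that carries the transactivating part of the interferon-activated complex. At 16 months its levels were 1.02, 2.48, 1.44 and 1.02 in KO and 1.36 and 2.58 in WT. The groups overlapped, and the difference was -0.48 (95% interval -1.56 to 0.61, adjusted p = 0.494). At 4 months they were 2.95, 3.38 and 2.85 in KO and 3.44, 3.00, 2.30 and 3.38 in WT, a difference of 0.03 (95% interval -0.92 to 0.99).

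**Figure D3:**
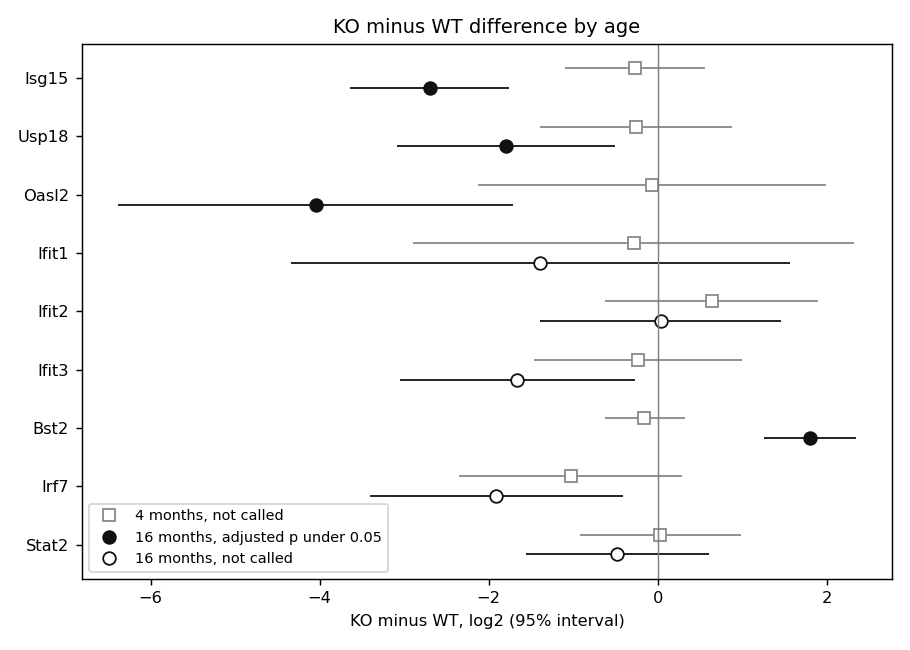
KO minus WT difference of each gene on the log2 scale, with 95% intervals from limma, squares for 4 months and circles for 16 months, and filled symbols where the adjusted p was under 0.05. At 4 months every interval spans 0, while at 16 months Bst2 stands at 1.80 and Isg15, Usp18 and Oasl2 stand at -2.70, -1.79 and -4.04.

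The test of the difference between the ages called 2 of the 9 genes, Bst2 higher and Isg15 lower, where 13.4% of all features were called, 6.84% higher and 6.51% lower. The other 7 were not called, 1 of them (Oasl2) at an unadjusted p under 0.05. Within WT the replicates of 16 months were themselves apart. The replicate made of arrays 3 and 4 was above the one made of arrays 1 and 2 for all 9 genes on the probe that stood for each, with levels of 2.28 against 0.18 for Oasl2 and 3.56 against 1.24 for Ifit3, but the other Isg15 probe ran the opposite way. With only 2 replicates in that group, each 16-month value leans on both.

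The members also differed among themselves in how they ran over the 13 replicates. After each gene was centred on its own mean, the closest pairs were Ifit3 with Stat2, with a root mean square difference of 0.662, and Isg15 with Usp18, at 0.665. The farthest pair was Bst2 with Oasl2, at 2.88. By the same measure over 17631 named genes, the nearest to Isg15 were Celf2 (0.281), Trit1 (0.289) and Cnr2 (0.32), and the nearest to Bst2 were Spata9 (0.15), Dennd5b (0.195) and Phf5a (0.203). The nearest to Stat2 were Rbm14 (0.226), Rela (0.252) and Pan2 (0.268), and Zfp113 (0.233) was the nearest to Ifit3. For Usp18 the nearest was Nanos1 (0.405), followed by the interferon-induced genes Rsad2 (0.421) and Samhd1 (0.451). The nearest to Ifit1, Zfp560, was farther off (0.756). The replicates share arrays and scaling, so these values describe the 13 replicates and carry no test.

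The rest of the interferon pathway was read from a list of 69 other genes, of which 65 were named on the array and 64 could be tested. At 16 months 4 rose in KO, 19 fell and 41 were not called, with a median difference of -1.08. This is set beside 34.3% of all features called, 19.3% higher and 15% lower. At 4 months 0 of the 64 were called and the median was 0.01. The number that fell at 16 months was 5 with the arrays of that age alone and 11 without WT arrays 3 and 4, and the number that rose was 0 and 2 in those fits. Without KO replicate 2, 22 fell and 3 rose. Calls over the whole array changed too. Of 31918 features, 10956 were called at 16 months as reported, 3419 with the arrays of that age alone and 11631 without KO replicate 2. The smaller number with the arrays of that age alone is thus not particular to the pathway genes. The fit without WT arrays 3 and 4 leaves 1 WT replicate at 16 months, so its counts are not compared.

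Among the receptors and their kinases, 1 of 4 genes rose and 1 fell, where 19.3% of all features rose and 15% fell at 16 months. Ifnar2, a chain of the interferon receptor, averaged 5.05 ± 0.27 in KO and 4.38 ± 0.16 in WT (SD, n = 4 and 2), a difference of 0.67 (SE 0.22, adjusted p = 0.0344). Ifnar1, its partner chain, differed by -1.34 and was not called (adjusted p = 0.158). Of 5 transcription factors, 2 fell and none rose, against the same shares of all features. Irf1, which drives many interferon-induced genes, averaged 2.07 ± 0.59 in KO and 5.29 ± 0.72 in WT, a difference of -3.22 (SE 0.38, adjusted p = 0.000271). Irf9, the DNA-binding partner of the STATs, differed by -0.34 and was not called (adjusted p = 0.464).

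Of 10 nucleic acid sensors and adaptors, 4 fell and 1 rose, where 15% of all features fell and 19.3% rose. Sting1, the adaptor that relays DNA sensing, averaged 1.79 ± 0.96 in KO and 5.91 ± 0.8 in WT, a difference of -4.12 (SE 0.53, adjusted p = 0.000392). Cgas, the cytosolic DNA sensor upstream of it, differed by -3.86 (SE 0.52, adjusted p = 0.000508). Both also differed between the ages, each by -4 (adjusted p = 0.00687 for Sting1 and 0.00648 for Cgas). Ifih1, which encodes the RNA sensor MDA5, rose by 0.98 (SE 0.31, adjusted p = 0.0344).

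None of the 5 interferon genes tested was called at 16 months, where 34.3% of all features were called. Ifna4 and Ifnk lay at the floor in both groups at that age, so their differences of 0 were set by the floor. Ifnb1, which encodes interferon beta, was well above background on 0 of 4 KO arrays and 2 of 4 WT arrays at 16 months. For such dim probes the lack of a call says little about the transcripts. Among 4 negative regulators, Socs3, a feedback inhibitor of cytokine receptors, averaged 2.92 ± 0.7 in KO and 6.98 ± 0.86 in WT, a difference of -4.06 (SE 0.48, adjusted p = 0.000254). Ifi35, an interferon-induced protein, rose by 1.45 (SE 0.34, adjusted p = 0.00802).

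Of 36 effectors tested, 1 rose and 11 fell, where 34.3% of all features were called, 19.3% higher and 15% lower. Ifi27, an interferon-induced gene of mitochondria, averaged 8.65 ± 0.6 in KO and 7.06 ± 0.72 in WT, a rise of 1.59 (SE 0.39, adjusted p = 0.00981). Slfn8 (-4.23, adjusted p = 0.00534) and Lgals9, which encodes galectin-9 (-3.67, adjusted p = 0.00308), had the largest falls of the effectors. Cxcl10, an interferon-induced chemokine, fell by 3.12 on the log2 scale (SE 0.87, adjusted p = 0.0188), although its KO and WT replicates overlapped. Ifitm3, which blocks viral entry, differed by 0.38 and was not called (adjusted p = 0.684). In the test of the difference between the ages, 1 of the 64 genes was higher (Ifi35, 1.84, adjusted p = 0.0248) and 8 were lower. Of all features 13.4% were called in that test, 6.84% higher and 6.51% lower. The largest falls were those of Socs3 (-4.33, adjusted p = 0.00355), Slfn8 (-4.16, adjusted p = 0.0465) and Lgals9 (-4.14, adjusted p = 0.0181).

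**Figure D4:**
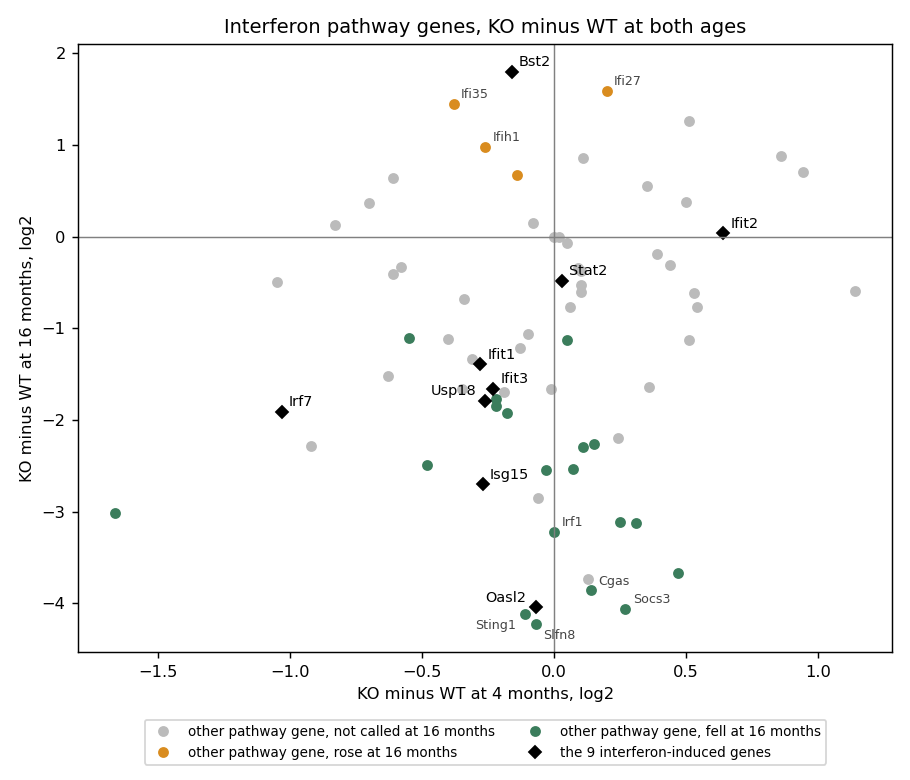
KO minus WT difference at 4 months (horizontal, log2) and at 16 months (vertical, log2) for the 9 interferon-induced genes (black diamonds) and 64 other genes of the pathway (circles, coloured by their call at 16 months). The 19 genes that fell and the 4 that rose at 16 months are spread on both sides of 0 at 4 months.

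Across the alternative settings, the 16-month differences of Isg15 and Bst2 were called in all 24 of 24. Isg15 ran at -3.21 to -2.19 (adjusted p = 0.00023 to 0.0423) and Bst2 at 1.15 to 1.89 (adjusted p = 1.4e-05 to 0.0275). The lowest p-value of each came from the setting with all 15 arrays as replicates. That setting counts the matching WT arrays of 16 months as separate replicates, so its p-values are too small. It is also among the alternatives that called Usp18, Ifit3 and Irf7.

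**Figure D5:**
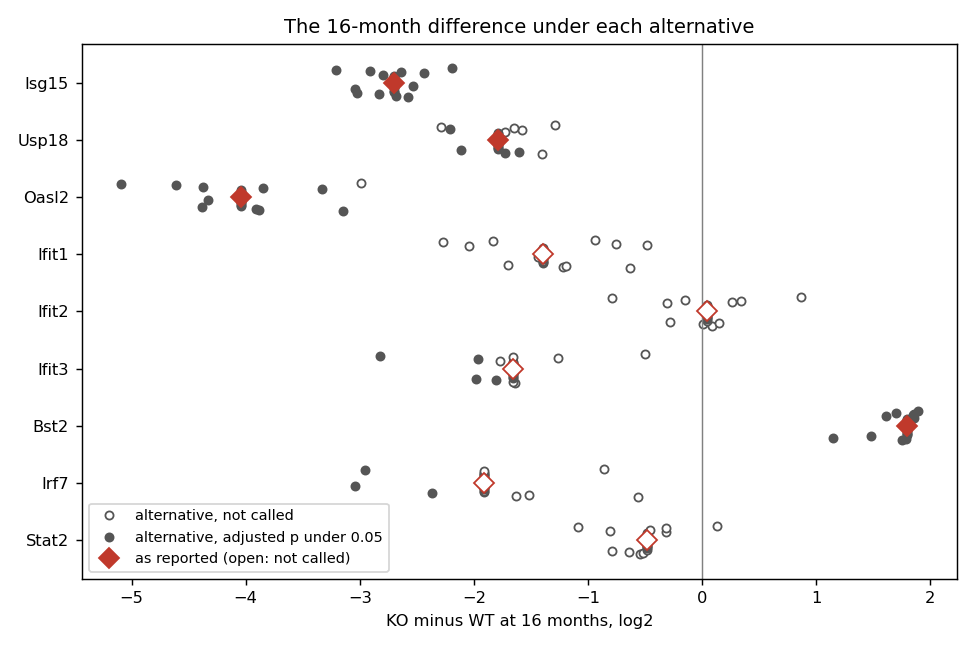
KO minus WT difference at 16 months (log2) of each gene under every alternative setting (circles, filled where the adjusted p was under 0.05) and as reported (diamonds). The circles of Isg15 are all filled and lie under -2, and those of Bst2 are all filled and lie above 1, whereas Usp18, Oasl2, Ifit3 and Irf7 show filled and open circles.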

How the data were processed

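RNA of sorted microglia was hybridised to one-colour Agilent arrays (design 028005). The deposited files are scanner output, and the processed signal is an intensity per spot that the authors' Feature Extraction software (10.7.3.1, per the file headers) had already corrected for background. That step was not the same at both ages. On the 4-month arrays the ratio of processed to background-subtracted signal varied over spots (SD 0.0625 to 0.124), and on the 16-month arrays it was constant (SD 1.29e-06 to 1.33e-06). Starting from median spot signals instead, the difference between the ages was -2.32 for Isg15 (limma, adjusted p = 0.0191) and 1.87 for Bst2 (adjusted p = 0.00663). R 2.15.3 is also listed among the tools in the submitters' processing notes. The files hold no gene names, so the accession of each probe was matched to RefSeq, which named 26582 probes. No normalized table of these arrays was used.

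Control and outlier spots were left out and repeated spots averaged. Each of the 15 arrays was divided by the 75th percentile of its signal, floored at 0.0325 of it (the highest over arrays of the dimmest signal well above background) and taken to log2. A probe was kept if it was well above background on at least 3 arrays (45606 probes), and the probe with the highest mean stood for a gene. WT arrays 1 and 2 and arrays 3 and 4 at 16 months were averaged. The measure was the scaled median absolute deviation of log2 differences around their median, which leaves out an even shift between arrays. It was 0.134 and 0.102 within the pairs, against 0.134 to 0.197 for repeated spots within an array and 1.05 to 1.1 between the pairs. Between arrays of a group it was 0.432 to 0.583 at 4 months, and among the KO arrays at 16 months it was 0.566 to 1.27. One limma fit (3.58.1, R 4.3.3) with 1 mean per group and 1 spread per feature for all groups gave the contrasts. P-values were adjusted by Benjamini-Hochberg over all features. The fit was tested on simulated data with the same spread in every group, so that test cannot check unequal spreads. No spot was saturated (0 spots). The number of arrays limits the precision.

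The 9 members and all lists were chosen with earlier results of these data known. The named genes are the 9 members, Grn, the 6 largest rises and 6 largest falls called in the pathway list per contrast, and 8 pathway genes named whatever their value. Mx1 is among the 8 and could not be matched to a probe. Some genes that this rule names are not reported here. For the likeness measure, the 3 nearest genes of a member could be named. Alternatives changed the background, normalization, filter, probe choice, samples and floor. The other 154 samples of the series, whole brain regions on bead arrays, were not analysed here, because their probe numbers are not paired with genes in the tables used.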

Additional observations from a re-analysis of the deposited data

Results flagged for a closer look

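Bst2 in KO microglia at 16 months had 1 replicate far from the others, KO replicate 2 at 5.85, against 5.13, 5.14 and 5.10 in the other 3. Its gap took up 0.944 of the range of the group, over the critical value of 0.829 for 4 samples. This was the 1 such case among 18 groups looked at, and chance gives about 5%. In 1 of the 18, Irf7 in KO at 16 months, all 4 replicates lay at the floor and no such gap was possible. The array of KO replicate 2 also stood apart from the other KO arrays of that age over all probes.

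By limma's test, the genotype difference of 2 members was called different between the 2 ages. The KO minus WT difference of Isg15 was lower at 16 than at 4 months by 2.42 on the log2 scale, a contrast of -2.42 (adjusted p = 0.0203, limma's moderated test), with 4 of 4 KO replicates under both WT replicates at 16 months. That of Bst2 was higher at 16 than at 4 months by 1.95 (adjusted p = 0.00553), with 4 of 4 KO replicates above both WT replicates. The Isg15 contrast was not called with the replicate block (limma, -2.41, adjusted p = 0.0683), and it was -1.91 without WT arrays 3 and 4. Age and slide cannot be told apart.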

How the results depend on the processing

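Of the results for single genes under the alternatives, 584 kept their direction and call, 14 gained a call, 15 lost one, 17 with no call moved or changed sign and 0 called results changed sign. The number of members lower at 16 months, 3 as reported, was 5 with the percentile taken over probes detected on all arrays, 5 with all 15 arrays as replicates and 1 with the 16-month arrays alone, and leaving out each replicate gave 1 to 4, the lowest without WT arrays 3 and 4. The number with a lower difference between ages, 1 as reported, was 2 with all 15 arrays as replicates and 0 to 2 when each replicate was left out, with 0 without WT arrays 3 and 4 and 2 without KO replicate 4. Of the other pathway genes, 4 higher at 16 months became 2 with quantile normalization, 2 with the percentile over detected probes, 2 with the replicate block, 0 with the 16-month arrays alone and 2 with the floor at the median (a setting chosen after seeing the data), and 1 to 6 with each replicate left out. The 19 lower became 5 with the 16-month arrays alone and 11 to 23 with each replicate left out, the lowest without WT arrays 3 and 4. The fits on 16-month arrays alone and without a replicate hold fewer samples. The fit on 16-month arrays alone also takes its spread from that age only. Otherwise the cause was not tested. Over all features, 3419 were called with the 16-month arrays alone, against 10956. The share of 16-month calls that were higher was 56.3% as reported, 43.2% with the percentile over detected probes and 64.7% with probes detected on all 15 arrays, where the median of all features was 0 and 0.48.

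Replicate numbers in the labels gave no pairing (r = -0.0406, -0.0357 and -0.0406 for same-numbered arrays at 4 months). With the replicate block, 8439 features were called at 16 months, Usp18 was not called (-1.79, adjusted p = 0.0515), and neither was the difference of Isg15 between ages (-2.41, adjusted p = 0.0683).

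The background alternative used median spot signals, since mean signals were not in the files used here. The slide could not be a block because each holds 1 age. The planned fits of brain regions and their alternatives were not run. Irf7 and part of Oasl2 and Ifit1 lie at the floor, so their differences are limited by the signal over background. Lone replicates are assumed to vary like the other groups.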
